A study of Mus musculus with 17 samples.

Results

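The constitutive subunits of the proteasome were followed in the mouse hypothalamus in 2 models of diabetes and in controls. They were chosen by name only: every probe set with a single gene symbol beginning Psma, Psmb, Psmc or Psmd and a digit, without the interferon-inducible subunits Psmb8, Psmb9 and Psmb10. That gave 65 of the 22690 probe sets on the array, for 36 genes of the 12394 named by a single symbol. RNA from 17 hypothalami was hybridised to Affymetrix arrays, 1 array for each animal. All animals were male C57Bl/6 mice 9 weeks old. The 6 STZ mice were wild type and had 1 intraperitoneal injection of streptozotocin, a toxin of the insulin-producing beta cell, at 200 µg per g of body weight. The 5 ob/ob mice carried the obese genotype, which removes leptin, and the labels describe no injection for them. The 6 controls were wild type and received vehicle. Glucose, insulin and body weight are not given in the labels.

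The proteasome is the barrel-shaped protease that degrades proteins tagged with ubiquitin. Its core particle is a stack of rings: alpha subunits form the outer rings and gate the entrance, and beta subunits form the inner rings, where a few carry the active sites. A regulatory particle caps the core. Its base holds a ring of ATPases that unfold the substrate and push it inside, and its lid removes the ubiquitin chain. In neurons the proteasome clears damaged proteins and sets the lifetime of regulatory and synaptic proteins. When proteasome activity falls short in mammalian cells, the transcription factor Nfe2l1 is known to raise the subunit genes together.

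The values are MAS5 signals, the linear brightness that Affymetrix software gives a probe set. They were put on the log2 scale, and only the brighter 60% of probe sets by mean over the 17 arrays (above the 40th percentile) were tested. Of the 65 member probe sets 53 passed (81.5%, against 60% of all probe sets), and they stand for 34 genes. The dimmest to pass was a second probe set of Psmd4 (geometric mean 461), and the brightest to fall short was a second one of Psmd9 (416). The 2 genes with no probe set above the filter were Psma8, the alpha subunit known from testis, and Psmc3ip, a meiotic recombination factor that shares the name but is no subunit. Each gene is represented below by its brightest probe set, with the cross-hybridizing _x_at kind used only for genes that lacked another. For Psma6 and Psmc2 an _x_at probe set was brighter than the one used. The tissue label was checked on markers: 7 of 8 hypothalamic markers passed the filter, Hcrt, Oxt and Avp among them, and Nkx2-1 did not. Markers of neighbouring regions (13 genes of striatum, cortex and thalamus) averaged 10.77 (log2) in ob/ob mice, 10.65 in STZ mice and 10.47 in controls, with array ranges of 10.64 to 10.92, 10.44 to 10.79 and 10.31 to 10.67. Hypothalamic markers averaged 11.50 in STZ mice, 11.36 in ob/ob mice and 11.65 in controls. They did not all move alike: Avp was higher in both models (geometric mean 13864 in STZ mice, 14020 in ob/ob mice and 12273 in controls). The other hypothalamic markers tested were lower in both, Pomc among them (1066, 997 and 1678 in the same order). The part of these levels in the proteasome values was looked at only by adding the neighbouring-region level as a covariate: with it, 0 of all 13576 probe sets passed in STZ mice, 0 in ob/ob mice and 1 between the models (limma; 7, 17 and 5 without it), so the count of 0 members there says nothing about them. The member medians were then 0.0104 in STZ mice, 0.00459 in ob/ob mice and -0.00161 between the models. In whole tissue, a change in the share of a cell type and a change in RNA per cell cannot be told apart.

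To show the promoters behind the genes described below, 250 bases before the annotated start were read from RefSeq (GRCm38.p6). In all, 31 windows of 29 of the 36 genes were matched. They were searched on both strands for TGACNNNGC, the core of the element bound by Nfe2l1 and its relative Nfe2l2, and for CCAAT, the box bound by NF-Y. Psmb5 is shown as a catalytic subunit with the first motif, which Psmb6 also holds, and Psma1 and Psma5 as the alpha subunits with the smallest p-values in ob/ob mice. Capitals mark a motif on either strand (ATTGG is CCAAT read on the other strand). The Psmb5 window (chr14:54617996-54618245, minus strand) holds TGACNNNGC with its first base at -47, the Psma1 window (chr7:114276117-114276366, minus strand) holds CCAAT at -126 and -98, and the Psma5 window (chr3:108256676-108256925, plus strand) holds neither.
Psmb5: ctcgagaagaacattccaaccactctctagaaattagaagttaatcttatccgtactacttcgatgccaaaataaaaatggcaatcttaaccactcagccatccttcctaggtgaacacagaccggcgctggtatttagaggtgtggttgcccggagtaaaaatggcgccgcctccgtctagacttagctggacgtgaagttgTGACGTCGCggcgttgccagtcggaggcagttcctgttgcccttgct
Psma1: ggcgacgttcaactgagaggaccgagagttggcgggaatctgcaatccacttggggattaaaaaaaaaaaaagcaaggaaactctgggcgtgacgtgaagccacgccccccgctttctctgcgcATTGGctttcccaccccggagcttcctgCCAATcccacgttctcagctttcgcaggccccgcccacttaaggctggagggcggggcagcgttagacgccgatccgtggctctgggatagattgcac
Psma5: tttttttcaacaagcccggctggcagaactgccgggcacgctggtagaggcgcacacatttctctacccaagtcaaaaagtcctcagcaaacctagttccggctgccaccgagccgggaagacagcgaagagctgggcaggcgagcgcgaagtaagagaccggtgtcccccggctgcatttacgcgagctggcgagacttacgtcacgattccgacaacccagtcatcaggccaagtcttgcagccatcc
TGACNNNGC was found in 5 of the 31 member windows (16.1%), those of Psmb5, Psmb6, Psmc6, Psmd12 and Psmd9, against 10.2% of 32851 mouse windows of this length. CCAAT was found in 12 (38.7%), against 33.8%. A match is a stretch of letters and not a measured binding site.

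No constitutive proteasome gene passed the test in either model. The mean log2 signal of the 34 genes was 12.150 ± 0.0362 in STZ mice, 12.142 ± 0.0494 in ob/ob mice and 12.149 ± 0.0292 in controls (SD over 6, 5 and 6 arrays). By array it ran from 12.106 to 12.203 in STZ mice, from 12.091 to 12.202 in ob/ob mice and from 12.103 to 12.179 in controls, so the 3 groups overlapped almost fully and all 17 arrays lay within 0.112. The number of genes above their own median ranged from 9 to 22 of 34 among STZ arrays, from 7 to 25 among ob/ob arrays and from 14 to 24 among control arrays.

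**Figure D1:**
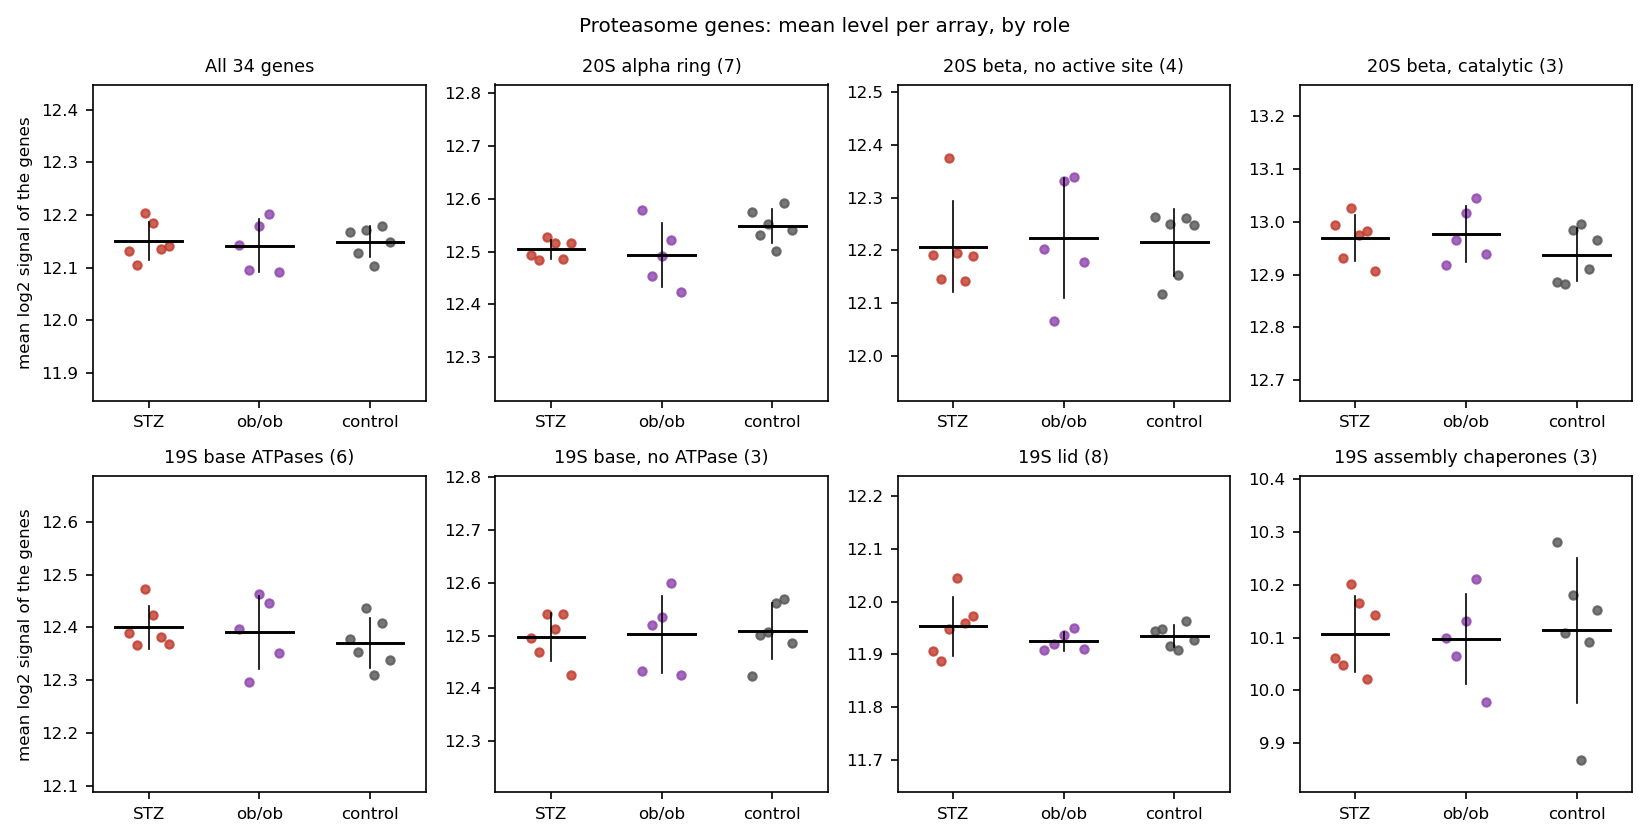
Mean log2 MAS5 signal of the proteasome genes on each array (points), for all 34 genes and for each role, in STZ, ob/ob and control mice. Thick bars are group means and thin bars 1 SD. All panels span the same height, and the groups overlap in each, with all-gene means of 12.150, 12.142 and 12.149.

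In STZ against control mice, 0 of 53 member probe sets passed an adjusted p of 0.05 (limma), where 0.0516% of all 13576 probe sets did. At an unadjusted p under 0.05 there were 4, or 7.55%, against 8.24% of all probe sets. Of these 2 were higher in STZ mice, where 3.87% of all probe sets were, and 2 lower, where 4.38% were. Of the 34 genes 16 had a higher and 18 a lower mean in STZ mice, with a median log2 difference of -0.00959 beside 0.00445 over all 7990 genes. The median absolute difference was 0.0418, against 0.0629 over all genes. The values ran from -0.126 for Psmb1 to 0.199 for Psmc4, and 6 genes (17.6%) exceeded 0.1 in size, against 30.3% of all genes.

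In ob/ob against control mice, 0 of 53 passed (limma), where 0.125% of all probe sets did, and 3 had an unadjusted p under 0.05 (5.66%, against 11.9%). All 3 were lower in ob/ob mice, as were 6.12% of all probe sets, and none was higher, as were 5.75%. Here 13 genes had a higher and 21 a lower mean in ob/ob mice, with a median of -0.0154 beside 0.00534 over all genes. The median absolute difference was 0.0484, against 0.0716. The values ran from -0.153 for Psma5 to 0.132 for Psmc4. Both comparisons use the same 6 controls, so a sign shared by a gene between them is not 2 independent observations.

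The direct comparison of ob/ob with STZ mice takes its differences from those groups alone. Its filter, errors and p-values also use the controls, because all groups were fitted in 1 model with a shared spread. The comparison had 0 of 53 calls (limma), where 0.0368% of all probe sets were called. At an unadjusted p under 0.05 there was 1 (1.89%, against 3.93%), and 0 when only the ob/ob and STZ arrays were fitted (limma). That probe set, of Psma7, was higher in ob/ob mice, as were 1.93% of all probe sets (2% were lower). The median difference was -0.00832 and the median size 0.0282, against 0.0507 over all genes.

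A p-value that misses a threshold does not show that values are alike, so the intervals matter more here. For 31 of the 34 genes (91.2%) in each comparison, the 95% interval of the difference lay inside a 1.2-fold change either way (0.263 on the log2 scale). The same held for 59.9% of all genes tested in STZ against control, 53.6% in ob/ob against control and 61.0% in ob/ob against STZ. The exceptions were Psmb1, Psmc4 and Psmd9 in STZ mice, Psma5, Psmc4 and Psmd9 in ob/ob mice, and Psmc4, Psmd3 and Psmd9 between the models. These intervals are for single genes and are not adjusted for their number. The spread behind them was small: the residual SD of the log2 signal had a median of 0.0831 over the members and 0.133 over all genes, and 29 of 34 members lay under the median of all genes. The comparisons with all genes, here and above, were not matched for brightness. The members averaged 12.147 (log2) over the 17 arrays, and the filter lay at 8.76. Whether brightness accounts for their smaller spread and differences was not tested.

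**Figure D2:**
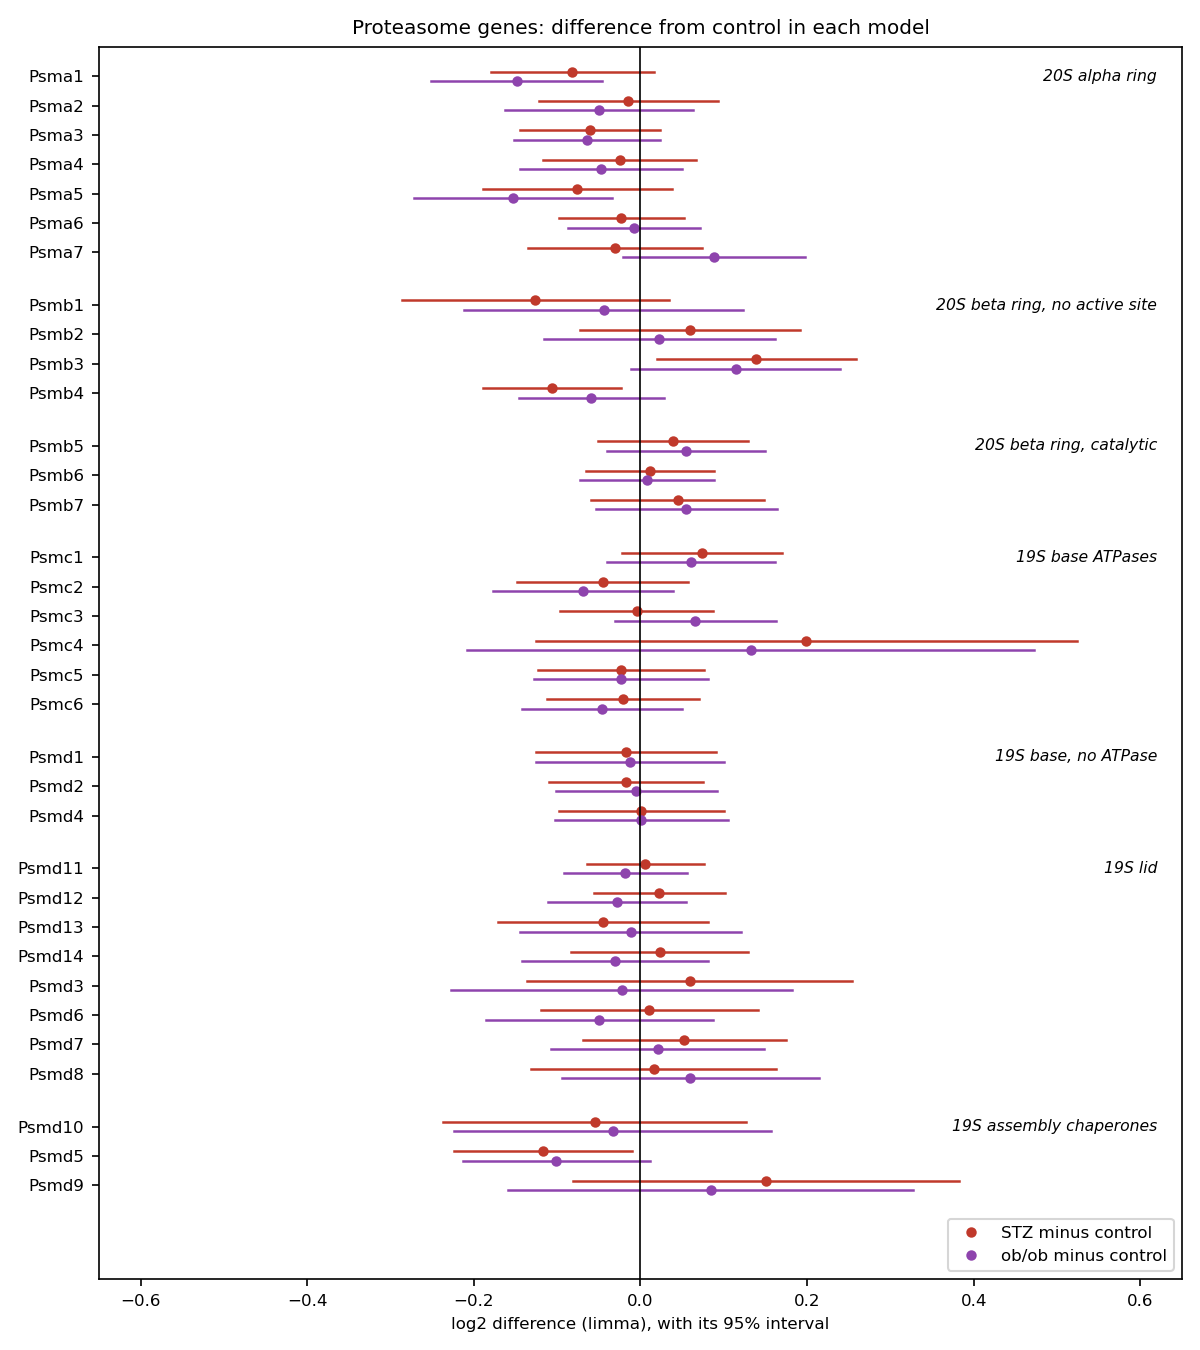
Log2 difference from control of each of the 34 genes in STZ mice (upper of each pair) and ob/ob mice (lower), with the 95% interval from limma, grouped by role. Most intervals cross 0 and stay narrow. The widest belongs to Psmc4, up to 0.524 in STZ mice.

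The alpha ring was measured by its 7 genes, Psma1 to Psma7. On the probe set that represents each gene, all 7 had a lower mean in STZ mice than in controls. The median was -0.0306 and the range -0.0817 to -0.0147, and 0 passed or had an unadjusted p under 0.05 (limma). Their other tested probe sets were all higher in STZ mice: 0.0714 for Psma5, 0.0865 and 0.03 for Psma6, and 0.0644 for Psma7. On the representing probe sets, 6 of 7 genes were lower than in controls in ob/ob mice, with a median of -0.0497. The ring's mean log2 signal was 12.504 ± 0.0178 in STZ mice, 12.494 ± 0.0605 in ob/ob mice and 12.549 ± 0.0328 in controls (SD). The lowest control array (12.501) lay below the highest STZ array (12.527) and the highest ob/ob array (12.579), so the groups overlapped. The sign of the ring's median was the same in all 29 alternative analyses. These reuse the same arrays, and some cannot change the STZ differences, so the kept sign adds no support. The count of lower genes in STZ mice did vary. It was 6 of 7 after quantile normalization, 5 when all probe sets of a gene were averaged and 4 with the neighbouring-region level as a covariate.

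Psma1, an alpha subunit, had the smallest p-value of the members in ob/ob mice. Its signal was 5006 at the lowest, 5187 at the median and 5310.2 at the highest in STZ mice, 5291, 4704.5, 4610.3, 5305.5 and 4785.5 in ob/ob mice, and 5152, 5349.9 and 5979 in controls in the same order. The ob/ob arrays 2, 3 and 5 lay below every control array and the other 2 lay inside the control range, so the groups overlapped. The difference was -0.149 ± 0.0493 (log2, SE; limma, unadjusted p = 0.00693, adjusted p = 0.223) in ob/ob mice and -0.0817 ± 0.047 (log2, SE; limma, unadjusted p = 0.0976, adjusted p = 0.681) in STZ mice, each against control.

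Psma5, a neighbouring alpha subunit, measured 4797.5 at the lowest, 5141 at the median and 5572 at the highest in STZ mice, 5320.5, 4469.6, 5058, 4911 and 4752 in ob/ob mice, and 4957.5, 5395 and 6287 in controls in the same order. The ob/ob arrays 2, 4 and 5 lay below the lowest control, the other 2 lay inside the control range, and control 1 stood highest of all 17. The difference was -0.153 ± 0.0569 (log2, SE; limma, unadjusted p = 0.0144, adjusted p = 0.286) in ob/ob mice and -0.0756 in STZ mice. A second probe set of Psma5 pointed the other way. It read 3158 at the lowest, 3509.9 at the median and 3819 at the highest in STZ mice, 3679, 3282, 3485.5, 3605 and 3783 in ob/ob mice, and 3011, 3314.5 and 3833 in controls in the same order, with a difference of 0.0968 in ob/ob mice. Averaged over its probe sets, the difference of Psma5 in ob/ob mice was -0.0279.

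Psma7 was the alpha subunit with the lowest p-value between the models. Its signal was 3690.0 at the lowest, 3958 at the median and 4179 at the highest in STZ mice, 4684, 4328, 4361, 4338 and 3773 in ob/ob mice, and 3758, 4134 and 4153.5 in controls in the same order. The ob/ob arrays 1 to 4 lay above every STZ array and ob/ob array 5 lay among them. The difference of ob/ob from STZ mice was 0.119 ± 0.0522 (log2, SE; limma, unadjusted p = 0.0343, adjusted p = 0.9996). Its second probe set gave -0.0543 in the same comparison, and the mean over both gave 0.0322. The remaining alpha subunits differed from control by -0.0608 (Psma3), -0.0251 (Psma4), -0.0228 (Psma6) and -0.0147 (Psma2) in STZ mice. In ob/ob mice they differed by -0.0641, -0.0475, -0.0076 and -0.0497 in the same order.

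Among the beta subunits without an active site, Psmb1, Psmb2, Psmb3 and Psmb4, 2 were higher and 2 lower than control in each model, and 0 passed (limma). Psmb4 measured 8266 at the lowest, 8551 at the median and 9343 at the highest in STZ mice, 8831, 8254.5, 9478, 9483 and 8782 in ob/ob mice, and 9097, 9355 and 9514 in controls in the same order. In STZ mice 5 of 6 arrays lay below the lowest control, and array 3 lay within the control range. The controls were tight, with an SD of 0.0234 on the log2 scale, against 0.066 in STZ mice and 0.0845 in ob/ob mice. The difference was -0.107 ± 0.0397 (log2, SE; limma, unadjusted p = 0.0142, adjusted p = 0.461) in STZ mice, the smallest p-value among the members there, and -0.0591 in ob/ob mice. Its second probe set gave -0.0905 in STZ mice and -0.055 in ob/ob mice.

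Psmb3 had a higher mean in both models. Its signal was 3063 at the lowest, 3350.3 at the median and 3655 at the highest in STZ mice, 3103, 3193, 3506, 3576.5 and 3145.5 in ob/ob mice, and 2742, 3129 and 3324 in controls in the same order. In STZ mice 4 arrays lay above the highest control, and the other 2 inside the control range. Controls 2 and 4 were the lowest of all 17. The difference was 0.139 ± 0.0572 (log2, SE; limma, unadjusted p = 0.0248, adjusted p = 0.521) in STZ mice and 0.114 in ob/ob mice, and its second probe set gave 0.046 and 0.0853.

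Psmb1 varied most within this group. It measured 5016 at the lowest, 5650.4 at the median and 6565 at the highest in STZ mice, 6186, 4818.5, 6596, 6526 and 5828 in ob/ob mice, and 5487.5, 6196 and 6542 in controls in the same order. STZ arrays 1, 2 and 5 and ob/ob array 2 lay below the lowest control, and the others did not. The difference was -0.126 ± 0.0765 (log2, SE; limma, unadjusted p = 0.115, adjusted p = 0.695) in STZ mice and -0.0442 in ob/ob mice, with a 95% interval of -0.286 to 0.0337 in STZ mice. Its other probe sets gave 0.0636 and 0.0143 in STZ mice, and the mean over all 3 was -0.0161 in STZ mice and -0.0389 in ob/ob mice. With the neighbouring-region level as a covariate the values were -0.0661 and 0.0596. Psmb2 differed by 0.0597 in STZ mice and 0.0225 in ob/ob mice, and by 0.015 in STZ mice without the high STZ array 3.

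**Figure D3:**
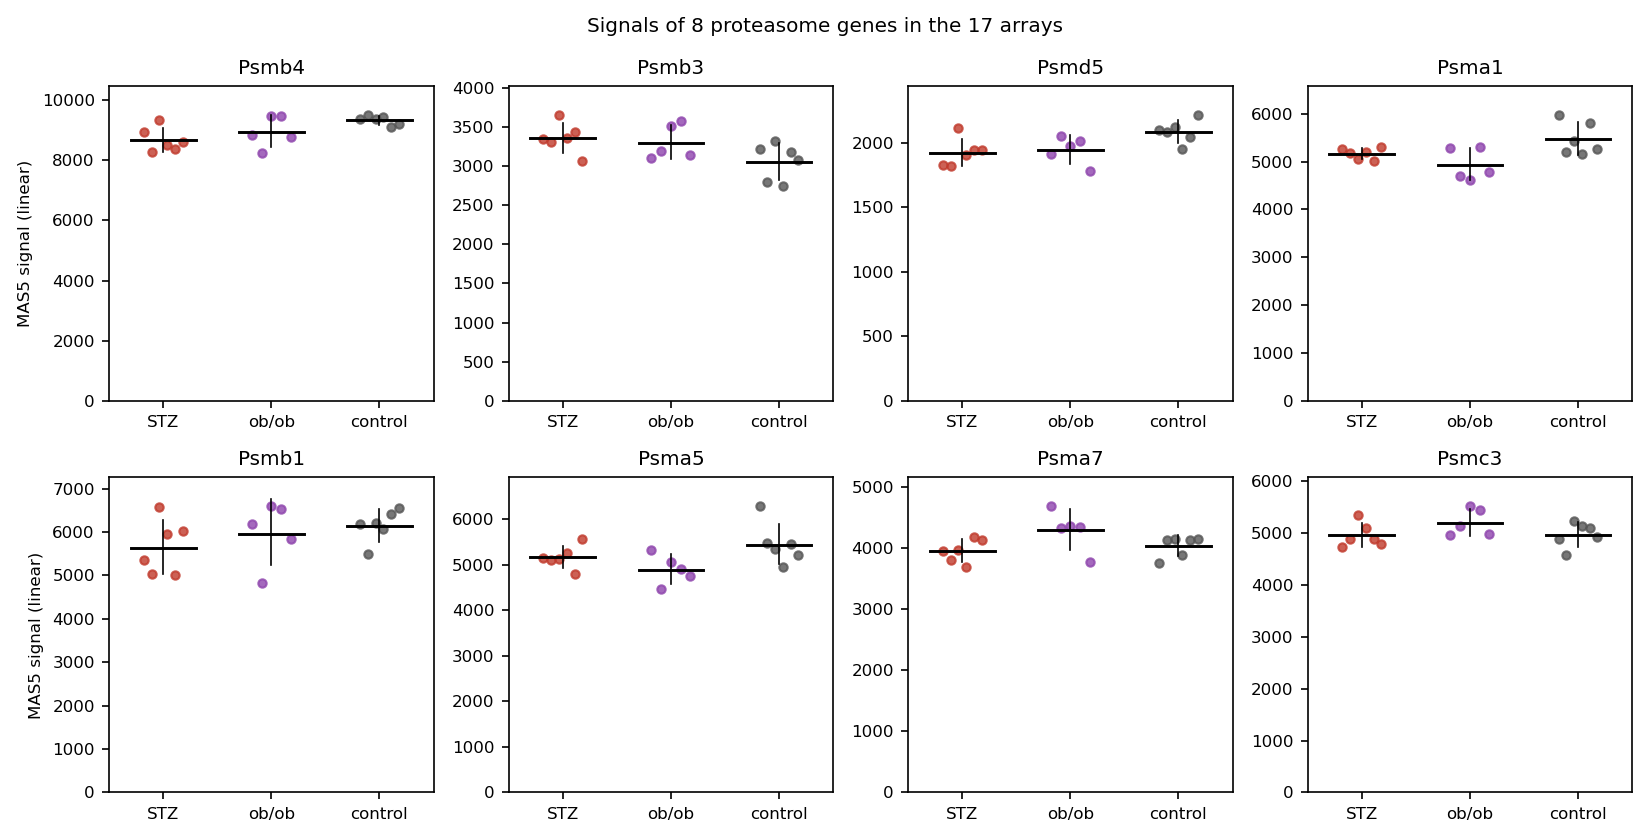
MAS5 signal (linear axis from 0) of 8 proteasome genes on each array in STZ, ob/ob and control mice. Thick bars are geometric means and thin bars 1 SD of the log2 signals. Every gene's groups overlap, as for Psmb4, whose highest STZ array (9343) lies within the control range.

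The 3 catalytic subunits each had a slightly higher mean in both models than in controls, by 0.0548 or less on the log2 scale, though only 2 of 3 did when arrays were centred on their medians, and 0 passed (limma). Psmb5, which carries the chymotrypsin-like site, measured 6092 at the lowest, 6553 at the median and 6853 at the highest in STZ mice, 6221, 6259.7, 7007, 6943 and 6457 in ob/ob mice, and 6029, 6286 and 6902 in controls in the same order. The groups overlapped over most of their range. The difference was 0.0391 ± 0.0432 (log2, SE; limma, unadjusted p = 0.377, adjusted p = 0.858) in STZ mice and 0.0547 ± 0.0453 (log2, SE; limma, unadjusted p = 0.242, adjusted p = 0.678) in ob/ob mice.

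Psmb6, which carries the caspase-like site, measured 4925 at the lowest, 5189.6 at the median and 5356.5 at the highest in STZ mice, 5073, 5053, 5092, 5475 and 5078 in ob/ob mice, and 4958, 5126 and 5406 in controls in the same order. Apart from array 4, the ob/ob arrays lay between 5053 and 5092, inside the control range. The difference was 0.0113 (95% interval -0.0652 to 0.0879) in STZ mice and 0.00776 (-0.0725 to 0.0881) in ob/ob mice, and the ob/ob value was -0.0142 without array 4. Psmb7, which carries the trypsin-like site, measured 14385 at the lowest, 15187 at the median and 17136.5 at the highest in STZ mice, 14700.5, 16168, 15965, 15877 and 14734 in ob/ob mice, and 13646.5, 14751 and 16560.4 in controls in the same order. STZ array 3 was the highest and control array 2 the lowest of the 17. The difference was 0.0446 (-0.059 to 0.148) in STZ mice and 0.0548 (-0.0538 to 0.163) in ob/ob mice.

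Each catalytic subunit has an interferon-inducible counterpart, and these 3 are set beside them as a contrast. Psmb8, the counterpart of Psmb5, was dim and under the filter. Its signal was 229.5 at the lowest, 329 at the median and 436 at the highest in STZ mice, 171.5, 139, 219, 187 and 190.1 in ob/ob mice, and 134, 186 and 261 in controls in the same order. STZ arrays 1 to 5 lay above every control, and STZ array 6 (229.5) lay inside the control range. In the fit without a filter the difference in STZ mice was 0.80 ± 0.196 (log2, SE), a 1.74-fold higher signal (limma, unadjusted p = 0.000644), and it did not pass over all 22626 probe sets (adjusted p = 0.243). In ob/ob mice it was -0.075 against control and -0.875 against STZ mice (limma, unadjusted p = 0.00043, adjusted p = 0.405). Psmb9 was also under the filter, with STZ arrays from 64.6 to 374.9, ob/ob arrays from 46.4 to 196.1 and control arrays from 41.5 to 226.2. Psmb10 passed the filter and differed by 0.125 in STZ mice (limma, adjusted p = 0.521) and 0.0808 in ob/ob mice.

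**Figure D4:**
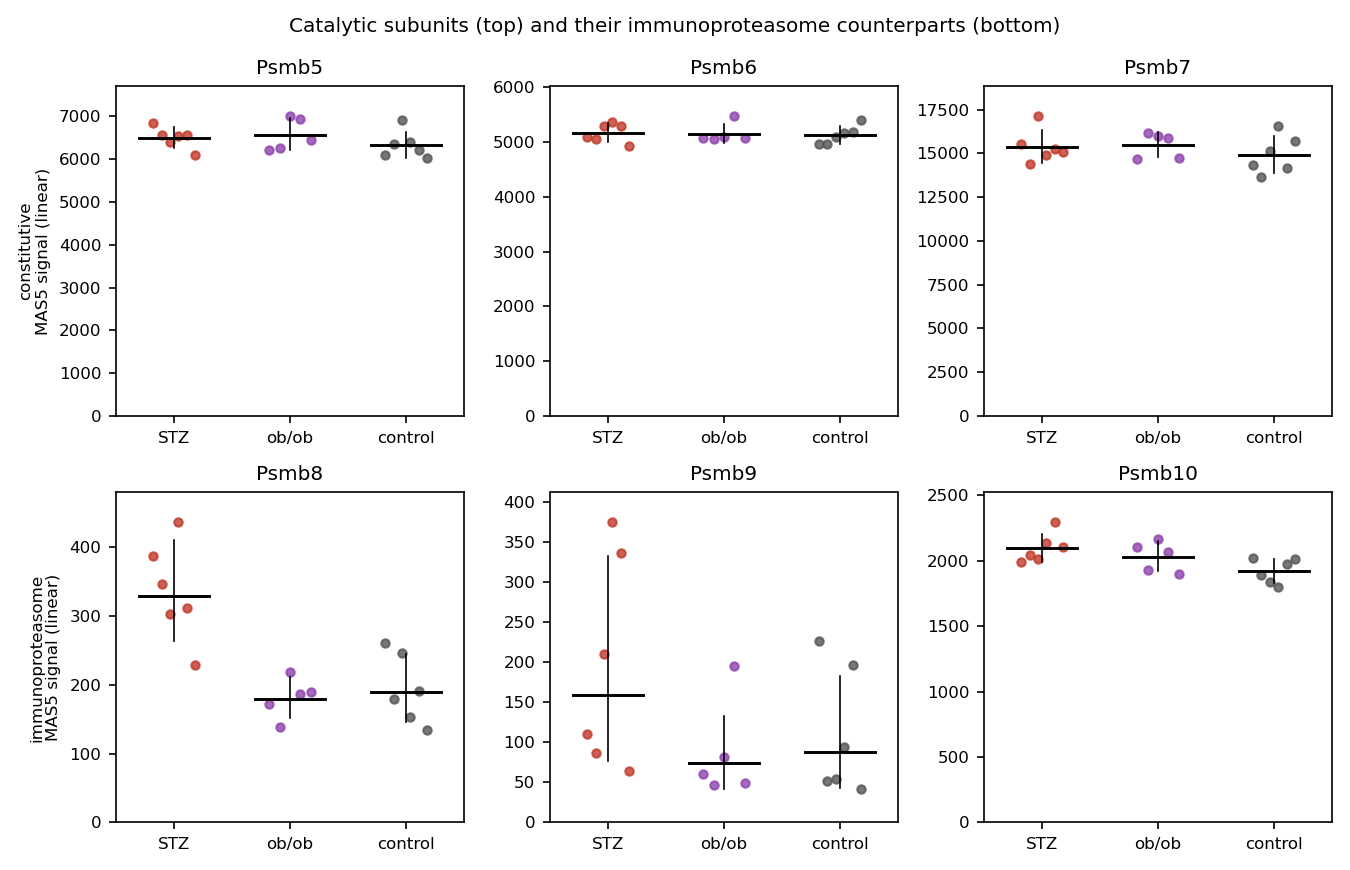
MAS5 signal (linear axis from 0, a scale of its own in each panel) of the constitutive catalytic subunits (top) and their interferon-inducible counterparts (bottom) on each array in STZ, ob/ob and control mice. Thick bars are geometric means and thin bars 1 SD of the log2 signals. Psmb5 overlaps between groups, and 5 of 6 STZ arrays of Psmb8 lie above its highest control (261).

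The 6 ATPases of the base, Psmc1 to Psmc6, had 2 higher and 4 lower means in STZ mice (median -0.0128) and 3 of each in ob/ob mice (median 0.0188, or -0.0114 with arrays centred on their medians), each against control, and 0 passed (limma). Leaving Psmc4 aside, on the representing probe sets they lay between -0.0452 (Psmc2) and 0.0742 (Psmc1) in STZ mice. In ob/ob mice they lay between -0.069 (Psmc2) and 0.0659 (Psmc3). Psmc5 differed by -0.0236 and -0.0234. The other probe set of Psmc2, a brighter one, gave 0.0618 in STZ mice and 0.025 in ob/ob mice. The other probe sets of Psmc6 gave 0.0787 and -0.0762 in STZ mice and 0.0739 and -0.0533 in ob/ob mice. Psmc1 differed by 0.0742 in STZ mice and 0.0611 in ob/ob mice, and by 0.048 and 0.035 without the low control array 2. Psmc3 was among the 3 members with the smallest p-values between the models. It measured 4729.9 at the lowest, 4888 at the median and 5351 at the highest in STZ mice, 4952, 5138, 5516.5, 5445 and 4978.5 in ob/ob mice, and 4573, 5008 and 5234.5 in controls in the same order. The ob/ob arrays 3 and 4 lay above the other groups and the remaining 3 inside them. The difference of ob/ob from STZ mice was 0.0704 ± 0.0462 (log2, SE; limma, unadjusted p = 0.143, adjusted p = 0.9996).

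Psmc4 is described because it had the largest positive difference in both models, and was picked after its values were seen. Its brightest probe set read 4457 to 5132 in STZ mice, 5417, 3331, 5158, 4485 and 5106 in ob/ob mice, and 2651 to 5554 in controls. Array 2 of the ob/ob mice (3331) and control arrays 4 (2651) and 6 (3107) stood apart below the other 14, and the residual SD of 0.313 was the largest of the members. The second probe set of Psmc4 read 3513 at the lowest, 3708 at the median and 3780.5 at the highest in STZ mice, 3465, 3642, 3699, 3741 and 3579 in ob/ob mice, and 3458, 3635 and 3878 in controls in the same order. There ob/ob array 2 read 3642 and control arrays 4 and 6 read 3676 and 3878, and control array 6 was the highest of the 17. It gave differences of 0.0134 in STZ mice and -0.011 in ob/ob mice, where the brightest gave 0.199 and 0.132. The values of the brightest rested on single arrays: without control array 4 they were 0.0645 and -0.00213, and without control array 6 they were 0.11 and 0.0437. Without ob/ob array 2 the ob/ob value was 0.251.

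The base subunits without ATPase activity were close to control. Psmd1 and Psmd2 are the scaffolds of the base and Psmd4 is a ubiquitin receptor. Psmd1 differed by -0.0169 in STZ mice and -0.0126 in ob/ob mice, Psmd2 by -0.0178 and -0.0048, and Psmd4 by 0.0012 and 0.00073. The 95% interval for Psmd4 was -0.0978 to 0.1 in STZ mice and -0.103 to 0.105 in ob/ob mice.

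Of the 8 lid genes, 7 had a higher mean in STZ mice than in controls (median 0.0192), and 2 had one in ob/ob mice (median -0.0205), with 0 passing in any comparison (limma). Between the models 2 were higher and 6 lower in ob/ob than in STZ mice, with a median of -0.0413. The lid averaged 11.953 ± 0.0557 in STZ mice, 11.925 ± 0.018 in ob/ob mice and 11.934 ± 0.0213 in controls (log2, SD), and the STZ arrays (11.887 to 12.045) spanned those of the other groups. The count of 7 depended on the scaling: when arrays were centred on their medians it was 2, with a median of -0.0136. It was 4, with a median of 0.000678, without STZ array 4. Psmd14, the deubiquitinase of the lid, differed by 0.023 in STZ mice and -0.0303 in ob/ob mice. Psmd11 had the smallest residual SD of the members, 0.0433, and differed by 0.0058 and -0.0182. The structural lid subunits Psmd6, Psmd7 and Psmd8 differed by 0.0107, 0.0526 and 0.0157 in STZ mice and by -0.0493, 0.0209 and 0.0599 in ob/ob mice. Psmd12 and Psmd13 differed by 0.0227 and -0.0447 in STZ mice and by -0.0282 and -0.0117 in ob/ob mice. Psmd3, also picked after its values were seen, had 1 array apart, STZ array 4 at 4060, where the other 16 lay between 2415 and 3409, and it differed by 0.0589 in STZ mice and -0.0228 in ob/ob mice. Without that array the STZ difference was -0.0284, and the difference of ob/ob from STZ mice was 0.00563 in place of -0.0816.

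Psmd5, Psmd9 and Psmd10 are named as subunits but are chaperones that assemble the base. Psmd5 measured 1819 at the lowest, 1922 at the median and 2116 at the highest in STZ mice, 1912, 2056, 1978, 2012 and 1779 in ob/ob mice, and 1951.5, 2092 and 2218 in controls in the same order. In STZ mice 5 of 6 arrays lay below the lowest control, and array 3 lay inside the control range. The difference was -0.117 ± 0.0513 (log2, SE; limma, unadjusted p = 0.034, adjusted p = 0.555) in STZ mice and -0.101 in ob/ob mice. With the neighbouring-region level as a covariate these became -0.0452 and 0.0231. Psmd10 differed by -0.0548 and -0.0335, and Psmd9 by 0.151 and 0.0842, with a low control array 4 (433) where the other 16 lay between 548 and 760.4. Without that array the differences of Psmd9 were 0.0543 in STZ mice and -0.012 in ob/ob mice.

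**Figure D5:**
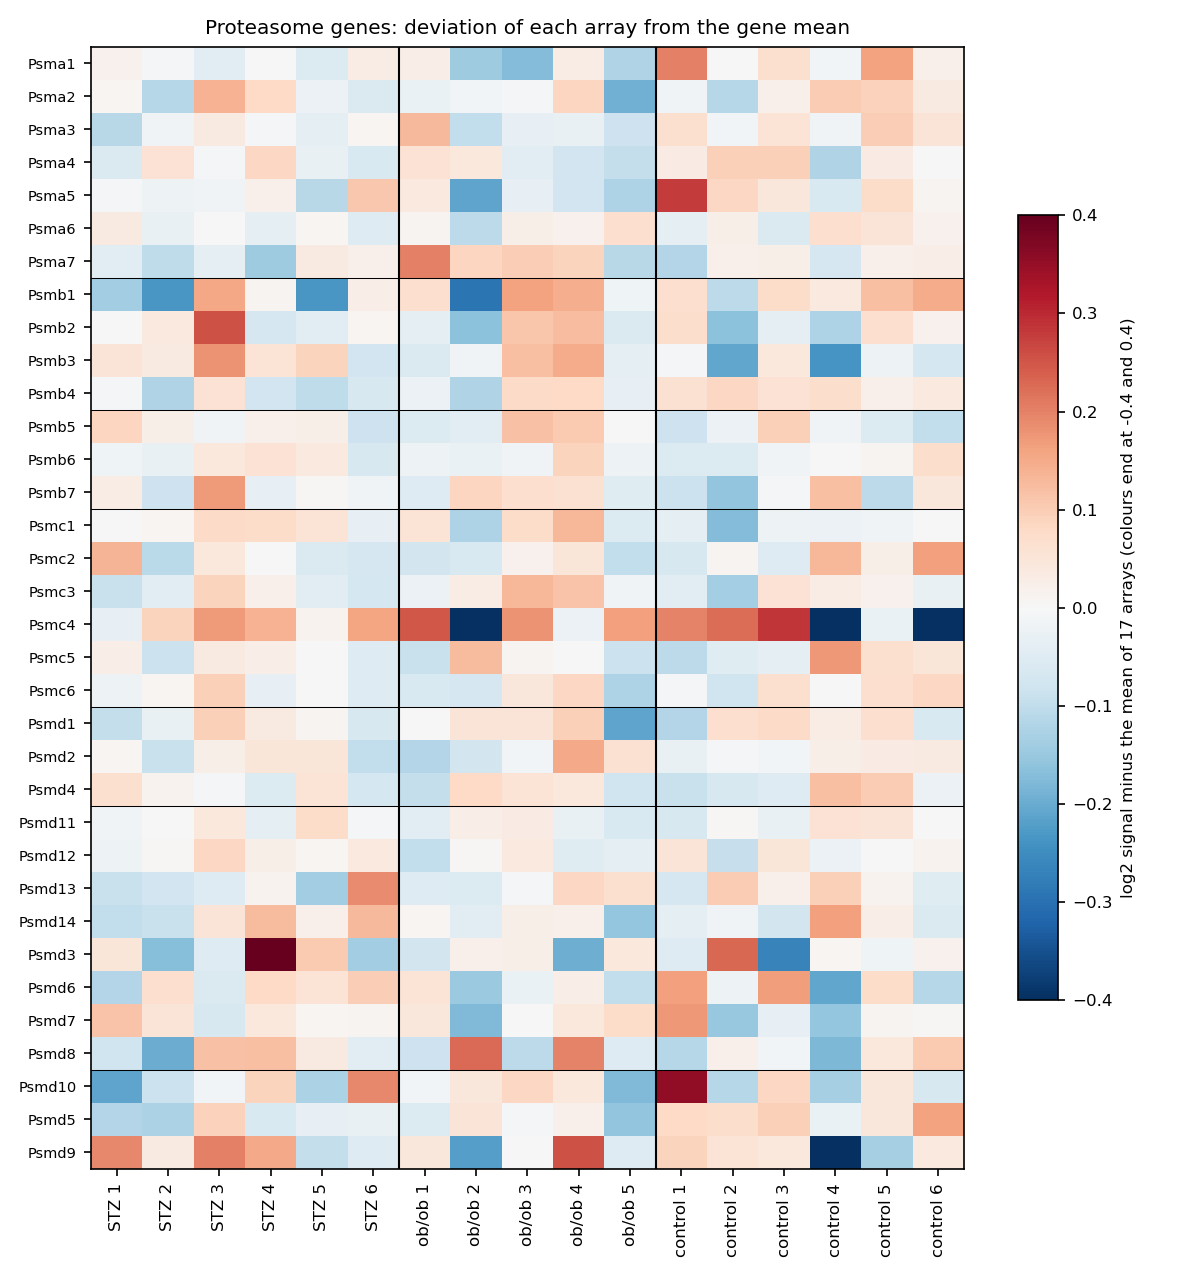
Log2 signal of the 34 genes (rows, by role) on the 17 arrays (columns, STZ, ob/ob, control), as the difference from each gene's mean over all arrays. Red is above and blue below that mean. No block of a group shares one colour across the genes, and the darkest blue cells are Psmc4 on ob/ob array 2 and control arrays 4 and 6 and Psmd9 on control array 4.

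Different probe sets of the same gene were also set beside each other. In 13 genes more than 1 probe set was tested, and the probe sets of a gene had both signs in 8 of 13 genes in STZ mice and in 8 of 13 in ob/ob mice. The median gap between the highest and lowest difference of a gene was 0.109 in STZ mice and 0.107 in ob/ob mice. The median absolute difference of the members was 0.0418 and 0.0484. A gap spans more than 1 value, so these measures are not alike and their sizes cannot be ranked. Other probe sets than the representative gave 2 of the unadjusted p-values under 0.05. That of Psmd11 read 4492 at the lowest, 4815.5 at the median and 5657 at the highest in STZ mice, 4282.5, 5665, 4176.5, 4199 and 4732 in ob/ob mice, and 4272.5, 4399 and 4566.5 in controls in the same order, a difference of 0.17 in STZ mice beside 0.0058 for the brightest. That of Psmd6 read 4761 at the lowest, 4936 at the median and 5467 at the highest in STZ mice, 4916, 4630.0, 4313, 4993 and 4622 in ob/ob mice, and 4746, 5242.4 and 5651 in controls in the same order, a difference of -0.156 in ob/ob mice beside -0.0493. The largest difference of any member probe set, 0.601 in ob/ob mice, came from the dimmest, of Psmd4, whose control arrays ran from 142 to 518 (limma, adjusted p = 0.522).

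The genes with the TGACNNNGC core in the promoter window did not share a direction. In STZ mice Psmb5 differed by 0.0391, Psmb6 by 0.0113, Psmc6 by -0.0211, Psmd12 by 0.0227 and Psmd9 by 0.151. In ob/ob mice the values were 0.0547, 0.0078, -0.0458, -0.0282 and 0.0842 in the same order. The transcript of Nfe2l1, a factor controlled mainly at the protein level, differed by -0.0203 in STZ mice (95% interval -0.118 to 0.0771) and -0.0161 in ob/ob mice (-0.118 to 0.0861), and the values were -0.00234 and 0.00193 without control array 6. Without ob/ob array 5 the ob/ob value was -0.0563. Nfe2l2 differed by -0.0573 and -0.0239, and by -0.108 and -0.0742 without the low control array 4.

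The wider pathway was read from 8 lists with 83 genes tested, each by its brightest probe set. In each comparison 0 passed (limma). Of all 7990 genes tested, 4 passed in STZ mice, 8 in ob/ob mice and 3 between the models. With so few calls, 0 of 83 says nothing about the lists. At an unadjusted p under 0.05 there were 10 in STZ mice (5 higher, 5 lower), or 12.0%, against 8.51% of all genes tested. In ob/ob mice there were 9 (4 higher, 5 lower), or 10.8%, against 12.0%. Between the models there were 2 (1 higher and 1 lower in ob/ob than in STZ mice), or 2.41%, against 4.19%. Over all 83 genes the median difference from control was -0.00317 in STZ mice and -0.00168 in ob/ob mice. The genes named here and below are the 2 of each list with the smallest p-values against control. They are therefore not typical of the lists. Further genes had an unadjusted p under 0.05 (limma) and are not described, Mafk (0.274 in STZ mice) and Huwe1 (-0.11 in ob/ob mice) among them. The smallest adjusted p belonged to Ube2b, an E2 enzyme that hands ubiquitin to substrates. It measured 5999 at the lowest, 6234.4 at the median and 6521 at the highest in STZ mice, 6359, 6282, 6232, 5941 and 6288 in ob/ob mice, and 6534, 6694 and 7322 in controls in the same order. Every STZ and ob/ob array lay below every control array, in a gene picked for its small p-value. How often this happens over all probe sets was not counted. The difference was -0.121 in STZ mice (limma, adjusted p = 0.318) and -0.126 in ob/ob mice (adjusted p = 0.176). A second probe set of Ube2b also passed the filter, and its values are not reported here. Sem1, a small lid subunit whose symbol falls outside the name rule, differed by -0.104 in STZ mice and -0.133 in ob/ob mice (limma, adjusted p = 0.618 and 0.326). Without the high control array 5 the values of Sem1 were -0.0593 and -0.0883. Pomp, which matures the core, differed by -0.126 and -0.0975, and the other core chaperone named, Psmg4, by 0.107 and 0.168.

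Of the caps other than the regulatory particle, the activator Psme1 differed by 0.0387 in STZ mice and -0.057 in ob/ob mice, and the activator Psme4 by -0.0677 and 0.132. Uchl5, a deubiquitinase bound to the base, differed by 0.0834 and 0.133. Among enzymes upstream, Cdc34, an E2 enzyme, differed by -0.0032 and 0.142 (0.0292 in STZ mice without control array 3), the E3 enzyme Ubr3 by 0.155 and 0.193, and Marchf6, an E3 of the endoplasmic reticulum, by -0.0904 and -0.0312. Sel1l, which holds the membrane E3 complex of the endoplasmic reticulum together, differed by -0.162 and -0.198, and Nploc4, a cofactor of the Vcp segregase, by 0.159 and 0.119 (0.0991 in STZ mice without STZ array 6). Of transcription factors known for proteasome genes, Mafg, a partner of Nfe2l1, differed by -0.133 and -0.182 and Foxo1 by 0.209 and 0.325. None of these passed (limma, adjusted p of 0.212 or more).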

How the data were processed

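Hypothalamic RNA of 17 mice (10 µg each) was measured on 1 array per animal: 6 STZ, 5 ob/ob and 6 control. The deposited values are intensity: the authors gave 1 linear MAS5 signal per probe set and array, per the submitters' processing notes, with version, scaling target and detection calls not given in the sources used here. In the files, every array had a 2% trimmed mean of 1500.4, signals from 0.1 to 48576.7 and correlations with the others of 0.954 to 0.972, and 0 pairs were identical. The number of arrays limits the precision. Groups came from the array titles, and p-values measure the spread between these animals.

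Of 22690 probe sets 64 were array controls and were left out. Of the other 22626, 20380 had 1 gene symbol, 691 several and 1555 none. All 36 member genes matched the RefSeq gene table by Entrez identifier and symbol. The probe sets' genome build is not given, so no coordinates are printed for them. After log2 and the filter at the 40th percentile (geometric mean 435), 13576 probe sets were tested in 1 model of 3 group means with limma 3.58.1 in R 4.3.3 (lmFit, eBayes with trend, Benjamini-Hochberg adjustment over all probe sets, threshold 0.05). Each of 7990 genes was read from its brightest probe set; one of the cross-hybridizing _x_at kind stood in only for genes that lacked another. The procedure was tested on simulated data with added differences larger than those of the member genes. That test does not measure its power at the sizes seen here. The 11 members given in full were the catalytic subunits and those with the smallest p-values, 5 in STZ and 5 in ob/ob mice against control and 3 between the models. The members, lists and rules were chosen with earlier results of these data known. Psme2, whose probe set has several symbols, and the genes of ubiquitin and its E1 enzymes were not analysed here. Alternatives were the filter, normalization, offset of 50, variance model, array weights, a neighbouring-region covariate, the replicate number as a block, the probe set rule and leaving out each array.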

Additional observations from a re-analysis of the deposited data

Results flagged for a closer look

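In 162 groups of arrays checked (all 34 proteasome genes with a probe set above the filter, their mean, and 19 related genes), 12 had 1 array set apart from the others of its group by Dixon's criterion, where chance gives about 1 in 20. Of the constitutive proteasome genes 4 were among them. Psmb6 read 5474.6 on ob/ob array 4, against 5053.4 to 5092.0 on the other ob/ob arrays. Psmb2 was high on STZ array 3 (3566.0, the others 2848.8 to 3071.8). Psmc1 and Psmd9 were low among controls, Psmc1 on array 2 (3891.0, the others 4287.9 to 4396.6) and Psmd9 on array 4 (432.8, the others 581.4 to 678.9). The rest were genes of the wider pathway. Mafg was low on STZ array 5 (2020.9, the others 2214.4 to 2310.1). Nploc4 was high on STZ array 6 (1971.8, the others 1477.7 to 1603.3) and on control array 1 (1679.0, the others 1336.2 to 1420.7). Nfe2l1 was high on ob/ob array 5 (7462.3, the others 6361.6 to 6649.2) and on control array 6 (7183.2, the others 6580.9 to 6759.1). Among controls, Cdc34 was high on array 3 (2203.8, the others 1868.0 to 1986.8), Sem1 was high on array 5 (5885.5, the others 4782.6 to 5068.4) and Nfe2l2 was low on array 4 (1391.0, the others 1677.6 to 1769.8).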

How the results depend on the processing

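In 29 alternatives the count of member probe sets past the threshold was 0 in each comparison. This count shows little about stability, since over all alternatives only 0 to 18 of all probe sets passed in STZ mice (at most 0.133%), 0 to 43 in ob/ob mice (0.317%) and 1 to 10 between the models (0.0737%). The member medians moved by less than the pooled SD of the member mean between arrays (0.0384). That SD is for single arrays, wider than the error of a group difference, and does not show that the moves were small. The counts at an unadjusted p under 0.05 ran from 2 to 6 in STZ mice, 3 to 5 in ob/ob mice and 0 to 4 between the models, and the smallest adjusted p of any alternative was 0.226, 0.132 and 0.805 (limma). The median in STZ mice lay between -0.0424 (median centring) and 0.0104 (neighbouring-region covariate), and between -0.0244 and 0.00114 when 1 array was left out. In ob/ob mice it lay between -0.0457 and 0.00459 under the same settings, and between -0.027 and -0.00514 with 1 array left out. Between the models it lay between -0.0124 and 0.00493, and between -0.0223 and 0.00176. So the sign of these medians depends on the setting. For single genes, 153 values (34 members and 17 pathway genes) were recomputed 4431 times: 0 passed the threshold and 224 changed sign, none of them among the 22 values with an unadjusted p under 0.05. Those 22 were picked by their p-value in the same arrays, so a kept sign adds no support to them. When arrays were left out one at a time, 10 of 34 members changed sign at least once in STZ mice, 15 in ob/ob mice and 20 between the models. Replicate numbers did not pair the arrays: correlations of same-numbered arrays ran from -0.165 to 0.109 over 16 pairs, and 2 of 17 arrays correlated best with their own number. With the replicate block the member counts were 0 and the medians -0.00959, -0.0207 and -0.0124, and the calls over all probe sets were 5, 19 and 1, where the fit without it gave 7, 17 and 5.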

Other observations

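The 2 members without a probe set above the filter were dim and variable. Psma8, the alpha subunit of testis, read 16.8 at the lowest, 58.6 at the median and 126 at the highest in STZ mice, 18.5, 51.5, 20.2, 106 and 129 in ob/ob mice, and 13.2, 62.0 and 115 in controls in the same order. Psmc3ip, the recombination factor, read 202 at the lowest, 286 at the median and 365 at the highest in STZ mice, 289, 320.0, 113, 356.5 and 244 in ob/ob mice, and 230.2, 266.6 and 397 in controls in the same order. In the fit without a filter Psma8 differed from control by 0.021 in STZ mice (95% interval -1.42 to 1.46) and Psmc3ip by 0.016 (-0.475 to 0.507).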
